A study of Drosophila melanogaster with 2 samples.

Results

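The 443 candidate regions on chromosome 4 of *Drosophila melanogaster* were examined for the zinc finger protein CG31388. They are all regions of the pooled dm6 list that lie on chromosome 4, out of 28750 regions on 6 chromosome arms. Within that list they were taken by position and not by signal, with earlier results of these data known. The list was made by chromatin immunoprecipitation and sequencing (ChIP-seq), which recovers the DNA that a protein sits on. The chromatin came from mixed-sex whole embryos, 0 to 16 hours old, of 1 transgenic fly line, strain CG31388-GFP. This line makes CG31388 with GFP at the C-terminal end, and an anti-GFP antibody pulled down the fusion protein. Both libraries, biological replicates 2 and 4, belong to this 1 group and carry the same transgene, so no second genotype, age or treatment was compared. A whole embryo mixes all tissues, and a region bound in few cells and one bound weakly in many cannot be told apart.

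The authors deposited the pooled list as peaks and background, the input for a reproducibility analysis by the irreproducible discovery rate (IDR). A region is called a reproducible peak here where the authors' IDR list holds it, and the other candidates can be background. Each region carries a signal value, the authors' enrichment on a scale that the sources used here do not state. Signals are therefore compared within a list, and ranks (1 for the strongest) between lists. Per the labels, the libraries name different protocol documents, and the replicate number and the protocol cannot be told apart. The read depth is unknown. Intervals on shares are 95% exact binomial (Clopper-Pearson) intervals over regions or genes, and they cover counting error only.

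Chromosome 4, the dot chromosome, is the smallest arm of the fly genome. It is packaged largely as heterochromatin, with HP1a and histone H3 methylation at lysine 9, yet its genes are expressed, and the protein POF coats them. Transposable elements and their remnants, above all short INE-1 copies, lie between and inside its genes. CG31388 belongs to the ZAD family, zinc finger proteins of insects with a zinc-finger-associated domain at one end and a row of DNA-binding fingers.

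The reproducible peaks on chromosome 4 numbered 7. The sequences around their summits are the DNA that the signal centres on. Windows of 61 bp of the dm6 plus strand are shown for the 6 summits not classed as untranslated region. Capitals mark the words TTAAAA and ATGCAAA, or the reverse complement TTTGCAT. For each, the gene with the nearest transcription start site (TSS) gives the name. The windows run over chr4:424794-424854 for *lncRNA:CR43437*, chr4:497861-497921 for *zfh2*, chr4:1027208-1027268 for *PlexA*, chr4:660008-660068 for *gw*, chr4:982931-982991 for *fuss* and chr4:807493-807553 for *Sox102F*.
lncRNA:CR43437: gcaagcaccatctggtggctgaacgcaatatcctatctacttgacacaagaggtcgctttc
zfh2: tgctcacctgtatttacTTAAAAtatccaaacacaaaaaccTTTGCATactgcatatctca
PlexA: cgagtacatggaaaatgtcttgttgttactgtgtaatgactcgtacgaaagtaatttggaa
gw: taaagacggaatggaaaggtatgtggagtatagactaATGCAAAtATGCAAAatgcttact
fuss: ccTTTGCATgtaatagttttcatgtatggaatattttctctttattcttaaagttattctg
Sox102F: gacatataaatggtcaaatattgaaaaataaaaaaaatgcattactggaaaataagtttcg

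These windows are mostly AT-rich. Their GC content ran from 23.0% at *Sox102F* to 49.2% at *lncRNA:CR43437*, the strongest peak on the chromosome. A word was looked for on both strands of a window of 101 bp centred on the summit, and counted once per window. ATGCAAA, a part of the octamer that POU domain proteins bind, was chosen after these sequences had been read, so its count is only a description. It stood in 3 of the 7 peaks, those at *zfh2*, *gw* and *fuss*, in 2.29% of the 436 other chromosome 4 candidates and in 4.15% of all 28750 candidate windows. The *gw* window holds 2 copies, 1 base apart.

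TTAAAA was chosen on the other 5 arms, as the word of 6 bases with the largest excess in their peaks over their other candidates (36.6% against 18.4% of windows). On chromosome 4 it stood in 3 of 7 peaks (*zfh2*, *Cals* and *gw*) and in 30.3% of the other candidates, against 19.8% of all windows. Sites of 6 known factors or families were searched too. These were TATCGATA (the site of Dref), CGATA (BEAF-32, also inside the former), GAGAG (GAGA factor) and GGTCACAC (M1BP). The others were GCCAT (the core of the Pho site) and CACGTG, which is only a single form of the E-box. Each of the 6 words stood in 0 of the 7 windows, and other forms of the E-box were not searched. Over all candidate windows their shares were 0.713%, 12.6%, 11.4%, 0.553%, 18.6% and 1.19%. No match says only that these letters are not in the windows.

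Of the 7 peaks, 3 were at promoters, 3 were intergenic and 1 was in a 3′ UTR. The strongest, chr4:424626-425021, had signal 119 and rank 371 in the pooled list. It held rank 474 in replicate 2 (signal 40.8) and rank 500 in replicate 4 (signal 67.4). Its summit was intergenic, 1243 bp from the TSS of the long non-coding RNA *lncRNA:CR43437*. The nearest coding gene was *lgs* at 12133 bp, which encodes the adaptor that joins Pygopus to beta-catenin in Wnt signalling. All 3 lists placed this region within their strongest 500.

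The second peak, chr4:497693-498088, was the one on which the replicates differed most in rank. Its signal was 116 (rank 396), with signal 99.7 and rank 202 in replicate 4 but signal 15.3 and rank 3371 in replicate 2. It lay between genes, 3919 bp from the nearest TSS of *zfh2*, a zinc finger homeodomain factor of wing and neural development.

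The next in signal, chr4:1113169-1113564, had its summit in the 3′ UTR of *Cals*, which encodes the neuronal membrane protein calsyntenin. The gene *sv*, a Pax2 factor needed in sensory organs and the eye, ended 50 bp away, and the nearest TSS stood at 9598 bp. Signal was 105 (rank 495), with rank 747 in replicate 2 (signal 32.7) and rank 595 in replicate 4 (signal 62.2). It was the only one of the 7 with an exon class. Summits near a TSS were classed as promoter first, whether or not they lay in an exon.

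Promoters held 3 of the peaks. A summit within 500 bp of any TSS is called promoter here. At *PlexA*, a semaphorin receptor of axon guidance, chr4:1027040-1027435 had its summit 137 bp from the TSS, signal 98.6 and rank 583. Its rank was 2245 in replicate 2 (signal 18.5) and 411 in replicate 4 (signal 73.9). At *gw*, whose product GW182 acts with Argonaute in microRNA silencing, chr4:659840-660235 had its summit 55 bp from a TSS, signal 70.5 and rank 1161. There the replicates were close, at rank 1041 (signal 27.9) in replicate 2 and rank 1363 (signal 42.0) in replicate 4. At *Sox102F*, an HMG-box factor of the SoxD group, chr4:807325-807720 lay 176 bp from a TSS with signal 55.1 and rank 1793. It ranked higher in replicate 2 (906, signal 29.8) than in replicate 4 (2206, signal 32.7), the reverse of *PlexA*.

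The last peak, chr4:982763-983158, stood between a Ski/Sno family gene and a Pax6 gene. Its summit was 4472 bp from *fuss*, a co-repressor of the Ski/Sno family, and 6764 bp from *toy*, one of the fly's Pax6 genes for eye development. Signal was 58.0 (rank 1652), with rank 2401 in replicate 2 (signal 17.9) and rank 1725 in replicate 4 (signal 37.3).

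All 7 peaks had their summit in a region of both replicate lists, which were part of the input to the authors' IDR list. Within the strongest 1872 regions of a list, the size of the authors' reproducible list, replicate 2 placed 4 of them, replicate 4 placed 6, and both placed 3. Not one of the 7 had a base in an annotated transposable element, and the nearest element was 331 bp away, at the *zfh2* peak. On the other arms, too, only 0.214% of the peaks had their summit in an element. In the whole series the weakest peak had signal 53.78 and the strongest candidate that was no peak 53.76, so the peaks are the top of the pooled list. Their median signal, 98.6, stood beside 77.8 for the 1865 peaks of the other arms.

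The 10 strongest candidates below that line had signals from 37.1 to 49.1, and 6 were at promoters. The first was at *anne*, with signal 49.1, rank 4541 in replicate 2 and rank 2055 in replicate 4. *Asator*, a kinase that binds the spindle protein Megator, followed at 43.4 with ranks 3669 and 2858. The promoter of *pho*, whose product brings Polycomb complexes to DNA, had signal 43.0, and there replicate 4 ranked it at 2457 and replicate 2 at 14724. The shared promoter of *CG11076* and *ATPsynbeta*, a subunit of mitochondrial ATP synthase, had signal 37.1 and ranks 5081 and 5697. The other two, at *Sox102F* with 47.8 and at *gw* with 38.8, are shoulders that share bases with the peaks there. The replicate 2 region under the *Sox102F* shoulder (rank 906) and the replicate 4 region under the *gw* shoulder (rank 1363) are those of the peaks, and replicate 2 had no region at the latter.

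The remaining 4 lay away from promoters. They were an intergenic region 1567 bp from the gene *lgs* and nearest the TSS of *lncRNA:CR44024* (signal 42.2), an intron of *CG33978* (40.5), the 5′ UTR of *myo*, a TGF-beta family ligand (37.9), and an intergenic site 6254 bp from *mir-9385* (37.8). The *lgs* region, 29.5% of it in elements, and the *CG33978* region, 23.7%, were the ones among these 10 and the 7 peaks with any base in an element. Replicate 2 ranked the *CG33978* region at 11854 and replicate 4 at 2233.

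**Figure D1:**
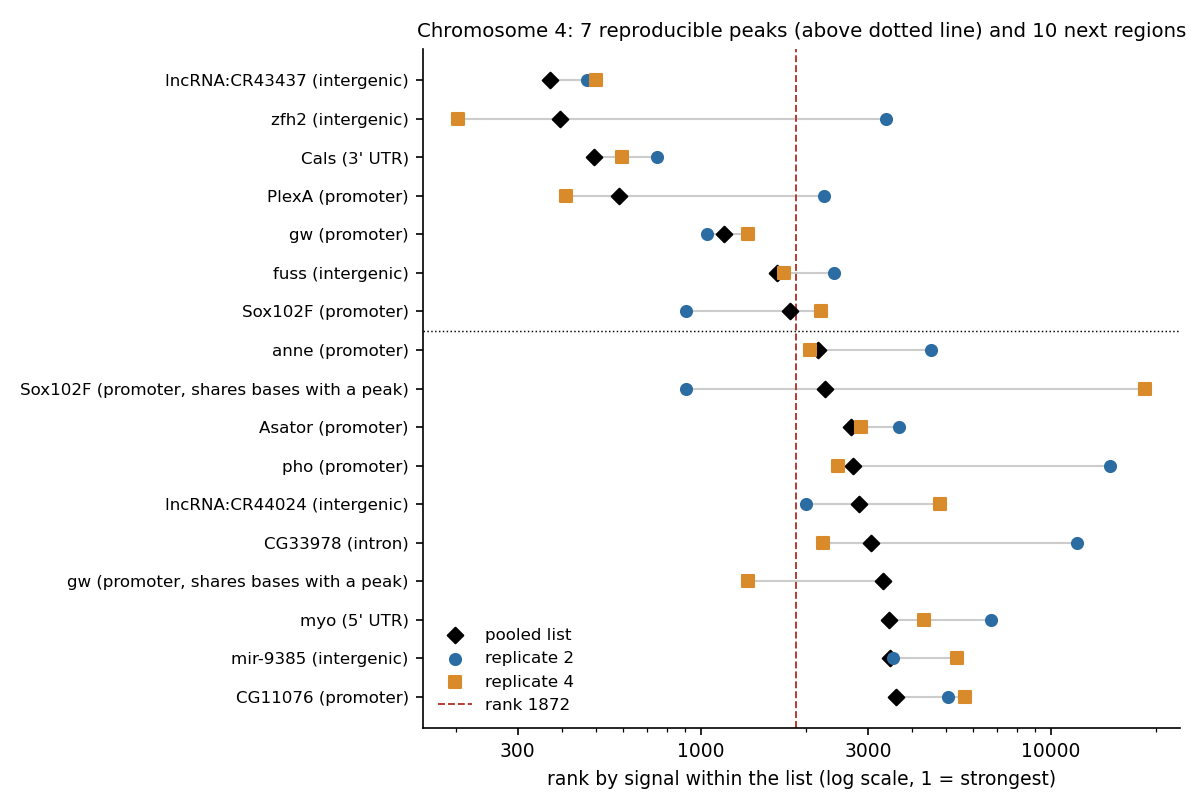
Rank by signal (log axis, 1 is the strongest) of the 7 reproducible peaks, above the dotted line, and the 10 next candidates on chromosome 4, in the pooled list (diamonds), replicate 2 (circles) and replicate 4 (squares); labels give the gene of the nearest TSS and the class of the summit, and the dashed line is rank 1872, the number of reproducible peaks in the series. The replicates lie close at lncRNA:CR43437 (474 and 500) and far apart at zfh2 (3371 and 202), and a missing circle means that replicate 2 had no region there.

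Set against the size of the arm, chromosome 4 had many candidates and few peaks. It holds 1.01% of the bases of the 6 arms and 1.54% of the candidate regions (interval 1.40 to 1.69), which is 329 regions per Mb against 214 on the other arms. The reproducible peaks were 7 of 443 candidates, 1.58% (0.638 to 3.23), where 6.51% of all candidates were peaks and 6.59% of those on the other arms. That is 5.19 peaks per Mb against 14.1, and 0.374% of all peaks. Over the other 5 arms taken singly, the peak share ran from 6.20% to 7.40% and the density of candidates from 184 to 239 per Mb, so chromosome 4 stood outside their range on both.

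The candidates covered 12.6% of chromosome 4 and 8.15% of the other arms. Every one of the 443 was 396 bp wide, the median of the list. Regions that share a base merged into 409 loci, 7.67% fewer, and on the other arms the loss was 8.21%, so neighbours overlapped about as often. The median step from summit to summit was 1881.5 bp against 2201 bp.

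The middle of the signal distribution was alike and the top was not. The median signal was 20.99 on chromosome 4 and 21.03 on the other arms, and 221 members (49.9%, 45.1 to 54.6) exceeded the median of the list. The upper quartile was 24.9 against 27.3, the 90th percentile 30.7 against 42.1, and the 99th 65.3 against 134. A signal over 30 was reached by 47 members, 10.6%, and by 19.8% of the other regions. The strongest region elsewhere had 771, and 370 regions on the other arms exceeded the 119 at *lncRNA:CR43437*.

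**Figure D2:**
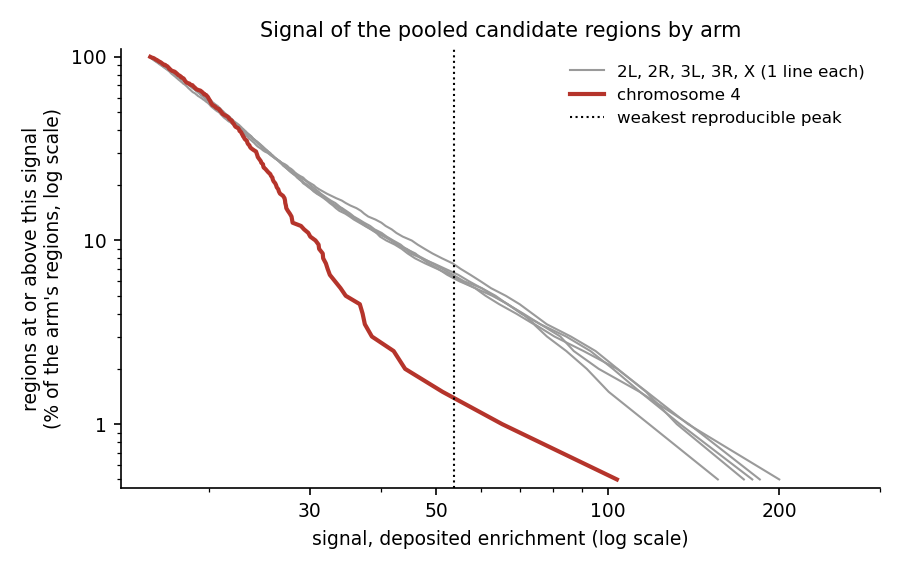
Share of an arm's candidate regions at or above a given signal (both axes logarithmic), for chromosome 4 (red) and the other 5 arms (grey, 1 line each); the dotted line is the weakest reproducible peak, 53.78, and the top 0.5% of each arm is not drawn. The lines run together up to the median near 21 and the red line falls below the others from the upper quartile on.

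The share of chromosome 4 changed with strength. Among the 1872 strongest pooled regions it was 7, 0.374% (0.150 to 0.769). It was 31 of ranks 1873 to 5000, 0.991% (0.674 to 1.40), and 99 of ranks 5001 to 10000, 1.98% (1.61 to 2.41). In ranks 10001 to 20000 it was 179, 1.79%, and below that 127, 1.45%. The share was thus under that of the arm's bases only among the strongest regions, and above it from rank 5001.

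Each replicate alone gave a low share at the top. Of its strongest 1872 regions, replicate 2 had 5 on chromosome 4 (0.267%, 0.0868 to 0.622) and replicate 4 had 6 (0.321%, 0.118 to 0.696). They parted in the next bin, where replicate 2 had 63 (2.01%, 1.55 to 2.57) and replicate 4 had 25 (0.799%, 0.518 to 1.18). Over the full lists of 30000 regions, replicate 2 had 581 on chromosome 4 (1.94%) and replicate 4 had 373 (1.24%), a mean of 1.59% ± 0.490 (SD, n = 2). The replicates differed 1.56 times in this count, and both shares were above that of bases.

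**Figure D3:**
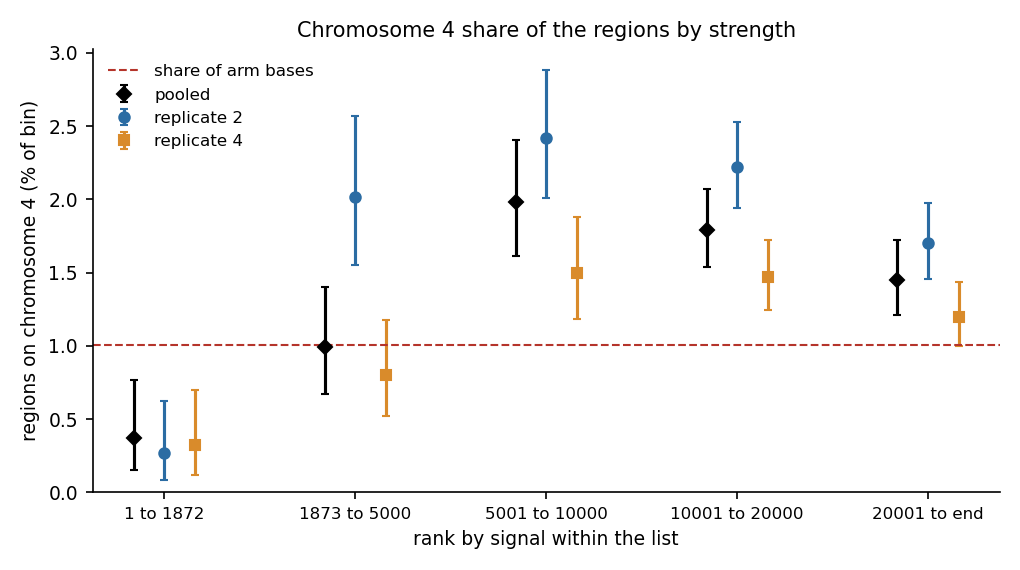
Share of regions on chromosome 4 (y axis, percent) by rank bin (x axis) in the pooled list, replicate 2 and replicate 4, with 95% exact binomial intervals; the dashed line is the arm's share of bases, 1.01%. All 3 lists are lowest among their strongest 1872 regions (0.374%, 0.267% and 0.321%), and replicate 2 lies above replicate 4 in each later bin.

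Base composition also differed between chromosome 4 and the other arms. The GC content of chromosome 4 is 35.2%, against 42.2% for the other arms, and its candidate windows had a median of 35.6% against 40.6%. The median of the peaks was 31.7% on both. These medians are over windows of 101 bp. Among the other arms, X had the lowest candidate median, 38.6%, with the highest peak share, 7.40%, and the lowest density of candidates, 184 per Mb. The share of elements differed between chromosome 4 and the other arms too, as given below. The part of either in the counts of regions or in their signal was not tested, and the control library is not analysed here.

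Along the arm the candidates were spread over its length and stopped short of the right end. In 12 steps of 100 kb from the left end the counts ran from 26 to 49, the highest between 400 and 500 kb, where the *lncRNA:CR43437* and *zfh2* peaks lie. The next step, from 1200 to 1300 kb, had 12, and the last 48.1 kb had 0. Beyond the last member, 82.9 kb were left, 93.2% of them annotated elements. All 20 copies of HeT-A and TART-A, the retrotransposons that form fly telomeres, stand there. Read mapping in such repeats depends on settings that the labels do not state, so the empty end cannot be read as unbound. Replicate 2 alone had 1 region in the last 48.1 kb.

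The genomic class of the summits differed from the other arms most in coding sequence. On chromosome 4, 93 summits (21.0%, 17.3 to 25.1) lay in coding sequence, which makes up 18.8% of its bases. On the other arms 8.74% of summits did, with 13.7% of bases. The strongest of the 93 had signal 31.7, in *Zyx*, the LIM protein zyxin of focal adhesions, and it was rank 2363 in replicate 2 and 21018 in replicate 4. No coding summit of the arm was a peak, and on the other arms 0.107% of the peaks were coding. The median signal of the 93 was 20.8, beside 20.99 for all members, and 1 of them ranked within the first 5000.

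Promoters held 84 summits, 19.0% (15.4 to 22.9), in 10.7% of the bases. On the other arms they held 26.8% of summits in 13.6% of the bases. The promoter share of peaks was 3 of 7, against 56.0% of the peaks elsewhere. The median signal of the promoter candidates was 20.1 on chromosome 4 and 24.1 on the other arms. With windows of 250 and 1000 bp in place of 500 bp, the promoter share was 12.6% and 29.3%, against 18.5% and 38.8% on the other arms, so it stayed the lower one.

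The rest resembled the other arms more closely. Introns held 172 summits (38.8%, in 42.6% of bases), close to 39.4% elsewhere. Intergenic sequence held 61 (13.8% against 18.9%), 3′ UTRs 21 (4.74% against 4.09%), 5′ UTRs 9 (2.03% against 1.05%) and non-coding exons 3. The median distance from a summit to the nearest TSS was 2720 bp against 1678 bp.

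**Figure D4:**
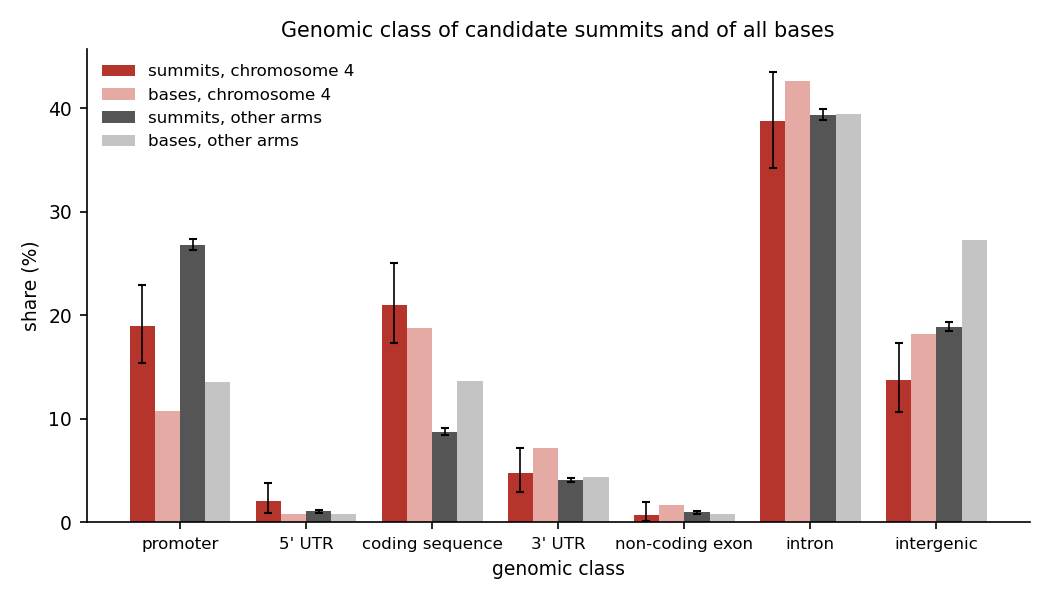
Share of candidate summits (dark bars, with 95% exact binomial intervals) and of all bases (light bars) in each genomic class, in percent, for chromosome 4 (red) and the other 5 arms (grey). Coding sequence holds 21.0% of the summits on chromosome 4 and 8.74% elsewhere, and promoters hold 19.0% and 26.8%.

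Transposable elements held a part of the candidates and none of the peaks. An annotated element contained the summit of 64 members, 14.4% (11.3 to 18.1), against 0.788% on the other arms. Elements also make up 24.8% of chromosome 4 and 5.74% of the other arms. Of the 443 members, 327 (73.8%) had no base in any element, against 98.3% of the regions elsewhere. The 64 element summits had signals up to 32.2, so all of them were under the weakest peak. Their median signal was 21.5, against 20.9 for the members with a summit outside elements.

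Elements differed by kind. INE-1, miniature non-autonomous elements that make up 7.22% of the bases of the chromosome, held 42 summits in 97.3 kb, or 431 per Mb. Sequence outside elements held 374 per Mb, so the density in INE-1 was 1.15 times that outside. On the other arms the INE-1 density, 257 per Mb, was 1.14 times the 225 per Mb outside. Element sequence of chromosome 4 outside INE-1 held 22 summits in 237 kb, 93.0 per Mb or 0.249 times the density outside elements. On the other arms it held 15.0 per Mb or 0.0665 times. A further 3 summits of chromosome 4 lay in an INE-1 and in a second family, and are counted under INE-1. The 237 kb include HeT-A (44.3 kb) and TART-A (26.1 kb), which held 0 summits and stand at the right end, which cannot be read as unbound.

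Of 51 families annotated on the chromosome, 16 held a summit. After INE-1 came HB, a Tc1-like DNA element, with 5 summits, the P-related element 1360 with 4, and Cr1a and Tc1 with 2 each, as many as F and Fw2. The strongest region in an element covered an INE-1 copy in an intron of *PMCA*, the plasma membrane calcium pump. It had signal 32.2, rank 12407 in replicate 2 and rank 3804 in replicate 4, and 96.5% of it was element. Its 61 bp at the summit, chr4:332495-332555, are shown as the element sequence with most signal, and hold neither marked word.
INE-1 in PMCA: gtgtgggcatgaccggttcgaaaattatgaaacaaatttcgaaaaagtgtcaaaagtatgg

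Each replicate gave nearly the same element share by itself. In replicate 2, 83 of 581 chromosome 4 regions (14.3%) had their summit in an element, and in replicate 4, 52 of 373 (13.9%), against 0.904% and 0.739% on the other arms. Copies of 1 family are alike in sequence, so reads from one copy can map to another, and the value of a single element is uncertain.

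**Figure D5:**
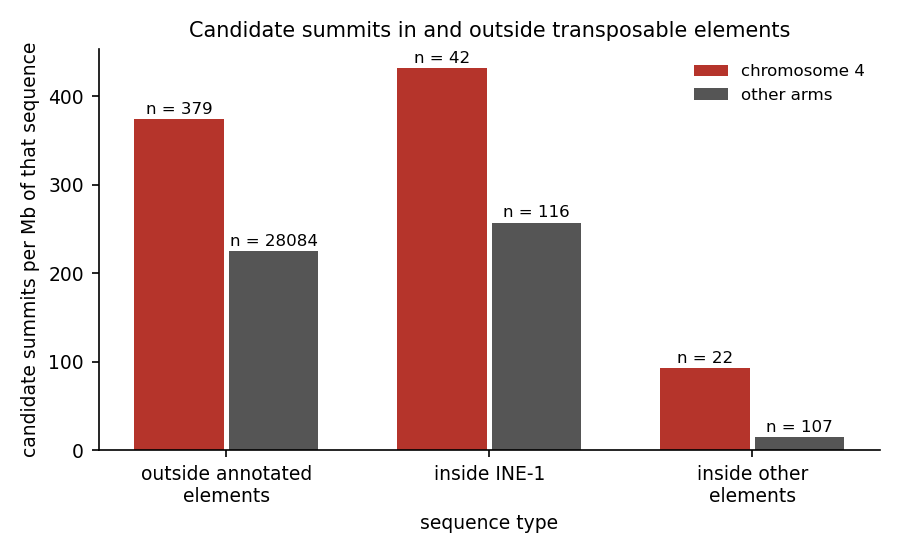
Candidate summits per Mb of sequence outside annotated elements, inside INE-1 and inside all other elements, for chromosome 4 (red) and the other 5 arms (grey), with the number of summits above each bar. On both, INE-1 is near the sequence outside elements (431 and 374 per Mb on chromosome 4, 257 and 225 elsewhere) and the other elements are lower (93.0 and 15.0). On chromosome 4 the other elements include HeT-A and TART-A, with 0 summits, at the end that cannot be read as unbound.

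Presence in the replicates was examined for every member. A member counted as found when its pooled summit lay inside a replicate region. Replicate 2 held 251 members (56.7%, 51.9 to 61.3), against 51.5% of the regions elsewhere. Replicate 4 held 292 (65.9%, 61.3 to 70.3), against 73.9%. Both held 132 (29.8%, against 33.7%), only replicate 2 held 119 (26.9%, against 17.8%), only replicate 4 held 160 (36.1%, against 40.2%), and neither held 32 (7.22%, against 8.25%). The share found was thus the higher one on chromosome 4 in replicate 2 and the lower one in replicate 4. In each, the share elsewhere lay outside the interval of the members.

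Strength went with presence. Both rest on the same libraries, and the first 1872 ranks are the IDR peaks, which the authors drew from these lists. A rise of presence with strength is thus built in to an unknown extent. Both replicates held 7 of 7 members within the first 1872 ranks and 28 of 31 (90.3%) in ranks 1873 to 5000. They held 50 of 99 (50.5%) in ranks 5001 to 10000, 45 of 179 (25.1%) in ranks 10001 to 20000, and 2 of 127 (1.57%) below. On the other arms the same shares were 98.1%, 83.6%, 53.8%, 21.0% and 5.01%. The share held by both replicates thus differed most from that elsewhere in ranks 1873 to 5000, and was higher in some bins and lower in others. The shares of each replicate were further apart. In ranks 10001 to 20000 replicate 2 held 62.0% of the members (54.5 to 69.1) against 43.1% elsewhere, and replicate 4 held 58.1% (50.5 to 65.4) against 73.5%. Replicate 2 alone held 36.9% there against 22.1%, and replicate 4 alone 33.0% against 52.5%. In ranks 5001 to 10000 the order was the other way, with 54.5% against 62.4% in replicate 2 and 96.0% against 91.0% in replicate 4.

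The kind of sequence went with it as well. Replicate 4 held 67 of the 93 coding members (72.0%) and replicate 2 held 39 (41.9%), and on the other arms these shares were 72.6% and 35.6%. Of the 84 promoter members replicate 2 held 54 (64.3%) and replicate 4 held 51 (60.7%), where elsewhere the shares were 62.0% and 78.9%. Of the 64 members in elements replicate 2 held 42 (65.6%) and replicate 4 held 36 (56.2%), while elsewhere the shares ran the other way, at 49.8% and 66.8%.

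Among members found in both replicates, the order of strength was barely shared. The Spearman correlation of the ranks was 0.15 over the 132 members and 0.01 over the 125 that were no peaks. On the other arms it was 0.58 over 9547 regions and 0.29 over the 7717 that were no peaks. These are descriptions without a test, over regions that share the libraries, the control and the base composition of their arm, and the narrower range of signals on chromosome 4 bears on them as well.

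Single regions show how far the ranks parted. Among those most shifted towards replicate 2 were regions in the 5′ UTR of *PlexA* (rank 6059 in replicate 2, 28361 in replicate 4) and in an intron of *CG31999* (4603 and 26301). Those most shifted towards replicate 4 were upstream of *Asator* (29787 and 4607), in an intron of *Asator* (28507 and 6902) and 805 bp from a TSS of *ey*, the other Pax6 gene (25781 and 4214). The *PlexA* 5′ UTR region stood 7159 bp from the nearest TSS, apart from the promoter peak of the same gene, which leaned the other way.

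By gene, most coding genes of the arm had a candidate near a TSS. Of its 80 protein-coding genes, 53 (66.3%, 54.8 to 76.4) had a candidate summit within 500 bp of a TSS, where 46.5% of all coding genes of the 6 arms and 46.4% of those on the other arms did. A reproducible peak at the promoter was held by 3 (3.75%, 0.780 to 10.6), *PlexA*, *gw* and *Sox102F*, against 10.1% of all coding genes. The strongest promoter candidate of each of the 53 genes had a median signal of 21.1, against 28.9 on the other arms. Over distinct regions, with one shared by 2 genes counted once, the medians were 21.1 and 26.9. The part of candidate density and of the number of TSSs per gene in the 66.3% was not tested.

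Most of the difference from the other arms was in replicate 2. Its own list put a region at the promoter of 60 of the 80 genes (75.0%), against 45.6% of genes on the other arms, and replicate 4 did so at 38 (47.5%), against 46.6%. The mean was 61.3% ± 19.4 (SD, n = 2), with 33 genes in both lists, 27 in replicate 2 only, 5 in replicate 4 only and 15 in neither. The excess over the other arms was therefore seen in 1 of the 2 libraries. The strongest pooled promoter regions of the 53 genes were 50 distinct regions, since 3 are shared by neighbouring genes. Of the 50, 21 were found in both replicates, 14 in replicate 2 only, 10 in replicate 4 only and 5 in neither.

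Gene bodies held a summit in 78 of the 80 (97.5%, 91.3 to 99.7), against 45.9% of all coding genes of the 6 arms and 45.6% on the other arms. Genes are longer on chromosome 4, with a median of 10090 bp against 2156 bp, and the part of length in this share was not tested. The most summits lay in *pan*, the TCF factor of Wnt signalling, with 21 in 44.9 kb. *Mpv17* and *CG46466* had none in the body or at the promoter, though the *PlexA* and *gw* peaks lie 1437 and 971 bp from them.

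The transcription regulators of the arm had candidates at 11 of 16 promoters and a peak at 1, *Sox102F*. After *Sox102F* and *pho* came *ey* with signal 26.8 and *MED26*, a Mediator subunit, with 26.4, both found in both replicates. The rest were *fuss*, *ci*, *pan*, *Hcf*, *onecut*, *dati* and *NfI*, while *toy*, *sv*, *zfh2*, *lgs* and *Mitf* had none at a promoter. All 16 had a summit in the body, and the peaks near *zfh2*, *sv*, *lgs* and *toy* lay beyond the promoter window.

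Signalling and guidance genes had candidates at 7 of 11 promoters, with the peak at *PlexA*. *Asator* and *Actbeta*, an activin ligand, followed with 43.4 and 37.1, then *PlexB*, another plexin, with 29.8. *Actbeta* ranked 1698 in replicate 2 and 20928 in replicate 4. The ligands *mav*, *myo* and *Ephrin* were among those with none at a promoter.

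The neuronal and synaptic list had the lowest median of the 5. Candidates stood at 5 of 8 promoters with a median signal of 16.9, and none was a peak. *unc-13*, a priming factor of synaptic vesicles, had 21.1 and *CaMKII* 16.9 at their strongest promoter region, which was found in no replicate in either case, and a weaker *unc-13* promoter region (18.2) had rank 15791 in replicate 4. The strongest promoter regions of *Syt7* (20.1) and *PMCA* (16.8) were found in replicate 2 only. The peak in the *Cals* 3′ UTR was the exception in this list, in the body and not at a promoter.

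The list named housekeeping here, which also holds *JYalpha*, had candidates at 10 of 11 promoters, all but *Rad23*. *gw* held the peak, and *ATPsynbeta* had 37.1, *Arf4*, a small GTPase of the Golgi, 29.9, and *Gyf* 27.3, the last 2 found in replicate 4 only. The strongest promoter regions of *RpS3A* and *ND-49* were also found in replicate 4 only, and those of *Tdg*, *4E-T* and *JYalpha* in replicate 2 only. Those of *gw*, *ATPsynbeta* and *eIF4G1* were found in both. The genes of cytoskeleton and muscle had 3 of 4, at *Zyx* (22.1), *bt* (20.0), the muscle giant projectin, and *Kif3C* (16.4), and none was a peak. Read against the 66.3% of all 80 genes, the lists ran from 62.5% to 90.9%, on 4 to 16 genes each.

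The dm3 lists, made by the authors on the older build, gave like counts. There 352 of 22246 pooled candidates (1.58%) and 7 of 1818 peaks were on chromosome 4, with signals of the peaks from 55.2 to 118. Replicate 2 had 578 of 30000 regions there and replicate 4 had 327 of 26320 (1.93% and 1.24%).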

How the data were processed

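ChIP-seq lists of 2 libraries (replicates 2 and 4, technical replicate 1 each) were used. The authors deposited 8 narrowPeak lists on dm6 and dm3, whose signal column was used here. Its scale, the software for alignment and peak calling, and the cutoff of the IDR step are not stated in the labels or read-me files. Per the deposited read-me files, replicate lists came from 1 replicate and a control alignment, the pooled list from both replicates and the control, and the IDR list from these 3. The deposited p column holds no values and the q column has a ceiling, so neither was used.

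Summits on the 6 arms were placed with Ensembl release 115 genes and elements on the assembly of dm6, as promoter first (500 bp to either side of a TSS). The order after that was 5′ UTR, then coding sequence, then 3′ UTR, then exons of non-coding genes, introns and intergenic sequence. Sequences came from the RefSeq genome of the same assembly. Scripts used Python 3.11.15, numpy 2.4.6, pandas 2.3.3 and scipy 1.17.1, and were tested on simulated data.

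With 1 group and no control peaks, no test over samples exists. Values are shares with exact 95% intervals, set beside the other arms. Named genes are those at the 7 peaks and the 10 strongest other candidates, up to 4 members of each of 5 gene lists, and the 3 regions most shifted to each replicate. Other list members are named for presence or absence at the promoter only. *pan*, *Mpv17*, *CG46466*, *Zyx* as the strongest coding region and the *PMCA* region were added after their values were seen. 1 region among the most shifted is not reported here. All 50 list members matched, 2 by an older symbol. Members and lists were chosen with earlier results of these data known. Alternatives were each replicate alone, dm3, the 936 strongest peaks, other promoter windows, other element rules and other overlaps.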

Additional observations from a re-analysis of the deposited data

How the results depend on the processing

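Of 28 alternatives over 8 results, 16 stayed within the interval of the reported share and 12 did not. From either replicate alone, the share of candidates on chromosome 4 was 1.24% to 1.94%, and the share of coding genes with a promoter candidate 47.5% to 75.0%; replicate 2 carries the latter's excess. Promoter windows of 250 and 1000 bp gave a promoter share of 12.6% and 29.3% and a gene share of 53.8% and 85.0%. On dm3, 44.9% of members exceeded the list's median signal. Without INE-1, elements held 5.64% of summits. Members found in replicate 2 were 65.7% with any overlap and 37.0% within its strongest 15000 regions, and in replicate 4 40.0% within its strongest 15000. Each replicate's own strongest 1872 regions, which are not IDR peaks, made up 0.861% (replicate 2) and 1.61% (replicate 4) of its chromosome 4 regions, against 6.35% and 6.30% on the other arms. The peak share was 1.99% on dm3, against 8.27%, and 0.903% for the strongest 936 peaks, against 3.29%. No paired analysis was possible because there is 1 group. Depth, mappability and the control were not analysed here, and regions of 1 library are not replicates.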
